A study of Homo sapiens with 15 samples.

Results

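The 10 genes described here encode antigens by which ovarian carcinoma is detected, followed or targeted, namely MUC16, MSLN, FOLR1, WFDC2, MUC1, SLPI, LCN2, KLK6, KLK7 and PRAME. They were taken as all probe sets annotated to a single one of these names, which gave 16 of 54613 probe sets and 10 of 19775 genes on the array. The array was the Affymetrix U133 Plus 2.0, on which a probe set is a group of short DNA probes read as one intensity. RNA came from PEO1 cells, a human line of ovarian cancer origin grown in RPMI-1640 medium with 10% fetal bovine serum, and no treatment separated the groups. Trypsinised parental cells were stained for the surface proteins CD90 and CD133 and with Sytox-blue, which marks dead cells, and were sorted by flow cytometry into CD90+/CD133+, CD90+/CD133- and CD90-/CD133- fractions with 5 arrays each (15 in all). The fractions therefore stem from a single cell line, and a sorted fraction is read in bulk.

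Most of these genes encode proteins that epithelial cells secrete or carry on their surface. MUC16 carries the CA125 epitope and binds mesothelin, the product of MSLN. FOLR1 takes up folate, MUC1 is a membrane mucin, and WFDC2 (HE4) and SLPI are small secreted proteins with whey acidic protein (WAP) domains. LCN2 is a lipocalin that binds iron-carrying siderophores, KLK6 and KLK7 are secreted serine proteases of the kallikrein family, and PRAME is an intracellular antigen found in testis and many tumours, where it represses retinoic acid receptor signalling.

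THY1, which encodes CD90, lay at 728.5 to 2171.1 on CD90+/CD133+ arrays, 795.3 to 1220.9 on CD90+/CD133- arrays and 57.8 to 101.3 on CD90-/CD133- arrays. PROM1, which encodes CD133, lay at 429.3 to 1651.6, 21.5 to 156 and 9.32 to 44.1 in the same order, so both followed the sort that defined the groups. The epithelial genes EPCAM, KRT8, KRT18, PAX8 and WT1 were expressed on every array, while PTPRC, which marks leukocytes, stood at the lowest deposited value of 5 throughout. The summed intensity of 9 epithelial genes ran at 32920 to 44810 on CD90+/CD133+ arrays, 36620 to 48300 on CD90+/CD133- arrays and 52020 to 64370 on CD90-/CD133- arrays. The genes in this sum did not move together. Relative to CD90-/CD133- arrays, limma put KRT8 at -0.98, KRT18 at -0.6, KRT7 at -0.42 and KRT19 at -0.27 on CD90+/CD133- arrays (log2). Each of these keratins passed an adjusted p of 0.05. EPCAM was higher by 0.33 (adjusted p = 0.00306) and PAX8 by 0.3 (adjusted p = 0.0424). CDH1 (0.15), WT1 (-0.15) and ESR1 (-0.04) did not pass. On the GAPDH control probes the 3' signal over the 5' signal, a sign of RNA quality, averaged 0.0498, 0.186 and 0.0565 log2 units in that order, and on the ACTB probes 1.70, 2.46 and 1.84. The part of these shifts in the results that follow was not tested.

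KLK7 differed most between the fractions. It was 4.65-fold higher in the CD90+/CD133- than in the CD90-/CD133- fraction, while KLK6, which lies beside it on chromosome 19, was bright in all 3 fractions and did not pass the test. WFDC2 and PRAME were lower in both CD90+ fractions. MUC1 was modestly higher in both. Against CD90-/CD133- cells, LCN2 (0.76 log2) and MSLN (0.31) passed as higher only in CD90+/CD133- cells. Their values in CD90+/CD133+ cells were close, at 0.57 and 0.27, and the CD90+ fractions did not pass against each other. The MSLN call was lost without any of 11 of the 15 arrays. MUC16, FOLR1, SLPI and KLK6 passed the test in no comparison. In counts, 7 of 15 tested probe sets of these genes were higher in the CD90+/CD133- than in the CD90-/CD133- fraction and 2 were lower, where 18.0% and 17.6% of the 40004 probe sets tested on the array were (35.6% in all). The median log2 fold change was 0.24 over the 15 probe sets and 0.00 over all. By gene, 4 were higher and 2 lower on their brightest probe set, beside 18.7% and 22.3% of 16393 genes. Between CD90+/CD133+ and CD90-/CD133- cells, 4 probe sets were higher and 2 lower (15.2% and 18.5% of all, 33.7% together), with a median of 0.21 against 0.00. This comparison shares its control arrays with the first. Between CD90+/CD133+ and CD90+/CD133- cells limma called none of the 15, against 3.40% of all probe sets higher and 5.46% lower (8.86%), and the median was -0.08 against -0.01. A t-test between these 2 fractions called 1 of the 15 and 5070 of all probe sets at an unadjusted p under 0.05. After adjustment it called 0 of the 15 and 29 of all. The paper lists t-tests among its general statistics, while its array methods name no test, only a fold change of at least 1.5.

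**Figure D1:**
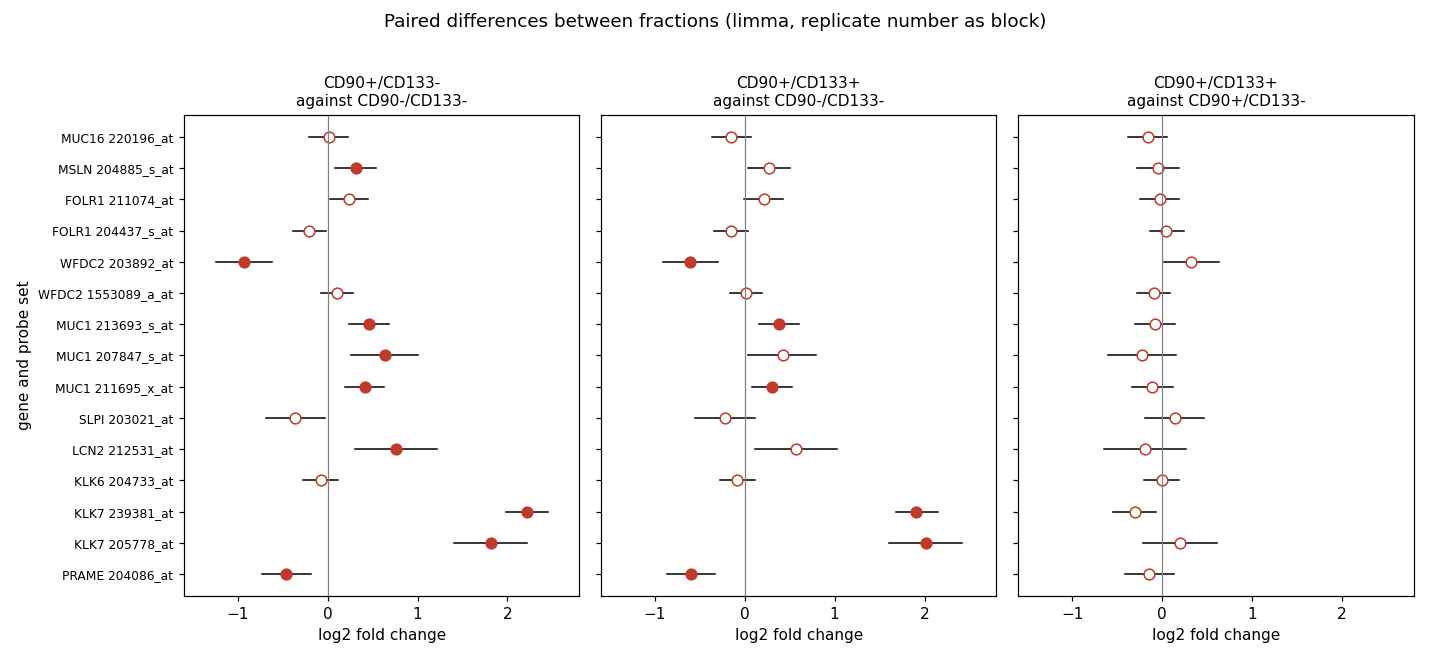
Log2 fold change of each tested probe set in 3 comparisons, with the 95% confidence interval as a line, from limma over 15 arrays with the replicate number as a block. Filled circles passed an adjusted p of 0.05 and open circles did not. Both KLK7 probe sets stand near 2 in the first and second panels, and no circle in the third is filled.

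Intensities are given below for replicates 1 to 5 in that order. They are linear values of the brightest probe set unless another is named, and levels of different probe sets cannot be set against each other. Fold changes are paired differences within replicate number, on log2 intensities floored at 16.

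KLK7 is a chymotrypsin-like protease that cleaves proteins of the junctions between skin cells. Its intensity was 325.9, 879, 1372.8, 984.4 and 1234.5 on CD90+/CD133+ arrays, 353.8, 1007.3, 2057.6, 1278.6 and 1459.2 on CD90+/CD133- arrays, and 93.2, 202.3, 371.8, 217.2 and 414.1 on CD90-/CD133- arrays. Replicate 1 was low in every fraction, so that its CD90+ arrays fell within the CD90-/CD133- range, whereas the other CD90+ arrays stood above all 5 of that range. Within replicate numbers the log2 difference was 1.82 to 2.56 between CD90+/CD133- and CD90-/CD133- cells, higher in 5 of 5 pairs. The fitted log2 fold change was 2.22 (standard error 0.107, adjusted p = 2.68e-07). It was 1.91 (standard error 0.107, adjusted p = 6.09e-07, 3.77-fold) for CD90+/CD133+ against CD90-/CD133- cells. The second KLK7 probe set gave 1.82 and 2.02 in these comparisons (3.52-fold and 4.05-fold). Both probe sets thus showed the rise, and each kept its call in every limma alternative run and with any array left out. Between CD90+/CD133+ and CD90+/CD133- cells the first gave -0.30 (adjusted p = 0.105) and the second 0.20 (adjusted p = 0.553), and neither passed. In bulk RNA from a sorted fraction, more cells with KLK7 RNA and more KLK7 RNA per cell cannot be told apart.

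KLK6 is a trypsin-like protease measured in serum of ovarian cancer patients. Its intensity was 1620, 4499, 5115.5, 4532.7 and 5140 on CD90+/CD133+ arrays, 1790.3, 4643.1, 4660.1, 5184.7 and 4368.7 on CD90+/CD133- arrays, and 2270.4, 4436.2, 4700.5, 4892.1 and 5046.6 on CD90-/CD133- arrays. The fractions overlapped, and replicate 1 was far below the rest in each. For CD90+/CD133- against CD90-/CD133- cells the log2 fold change was -0.08 with a 95% interval of -0.28 to 0.11 (adjusted p = 0.527), and for CD90+/CD133+ against CD90-/CD133- cells it was -0.09.

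**Figure D2:**
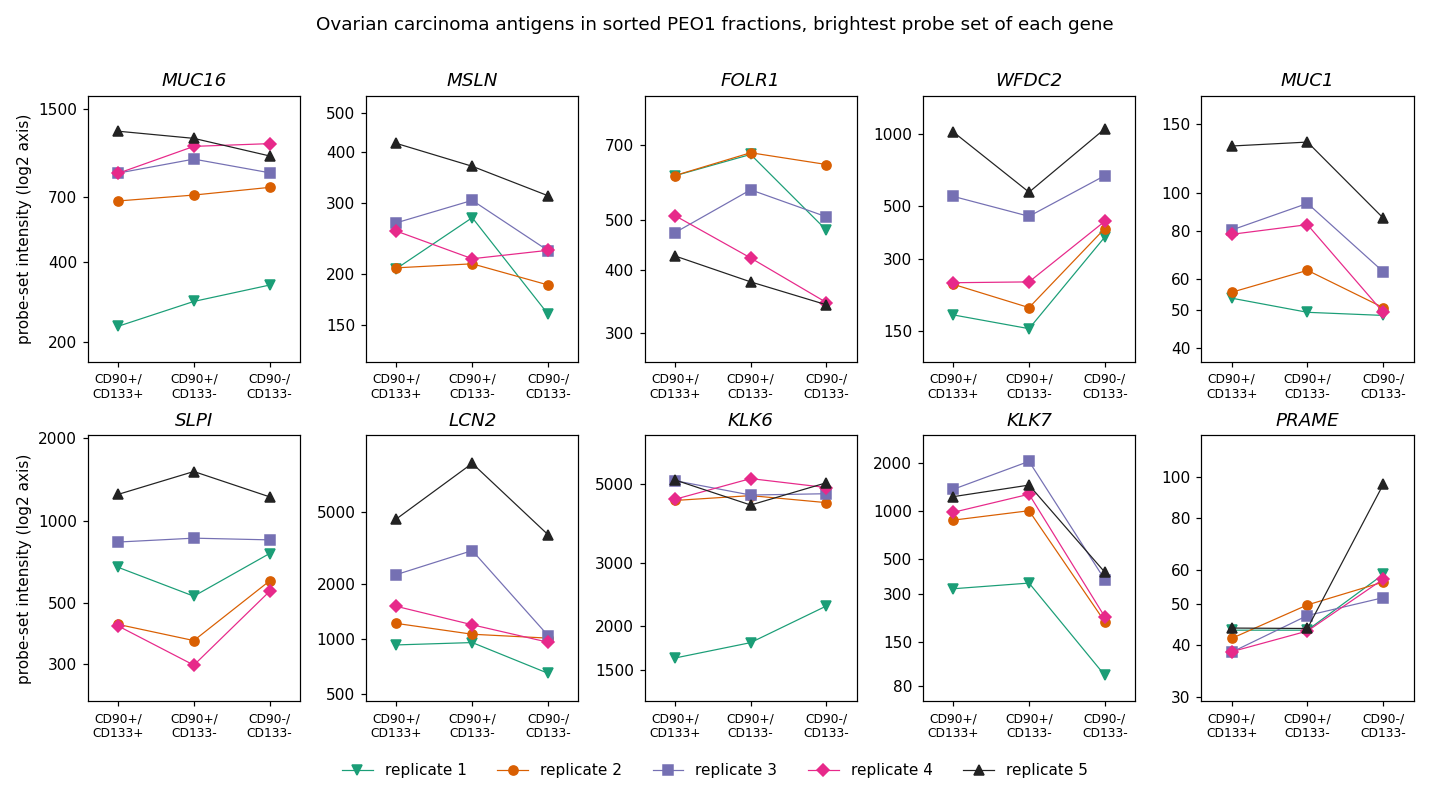
Intensity of the brightest probe set of each gene on all 15 arrays, on log2 axes whose range differs between panels. Each line joins the 3 arrays of a replicate number. All 5 KLK7 lines drop from the CD90+ fractions to CD90-/CD133-, and the 5 lines of PRAME and of WFDC2 end higher there. Replicate 1 lies lowest throughout for MUC16 and KLK6.

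The kallikrein genes stand in a single cluster on chromosome 19, in the order KLK1, KLK15, KLK3, KLK2, KLK4, KLK5, KLK6, KLK7, KLK8, KLK9, KLK10, KLK11, KLK12, KLK13 and KLK14. KLK9 had no probe set of its own. Of the 12 others besides KLK6 and KLK7, none was higher in the CD90+/CD133- than in the CD90-/CD133- fraction and 4 were lower. Over all genes 18.7% were higher and 22.3% lower. The median log2 fold change was -0.13 for the 12 against -0.02 over all genes. KLK10 lay at 129.8 to 989.1 (median 470) on CD90+/CD133+, 141.9 to 705.5 (median 372) on CD90+/CD133- and 945.4 to 2390.2 (median 1865.9) on CD90-/CD133- arrays. Every CD90+/CD133- array was below every CD90-/CD133- array, while the CD90+/CD133+ range reached into that of CD90-/CD133- cells. Its log2 fold change was -2.15 (standard error 0.234, adjusted p = 4.59e-05) for CD90+/CD133- and -1.90 (adjusted p = 0.000112) for CD90+/CD133+ cells, each against CD90-/CD133- cells, and a second KLK10 probe set gave -0.87 in the first of these. KLK5, a trypsin-like protease that activates pro-KLK7 in skin, fell by 0.77 on the log2 scale (adjusted p = 0.00172, 0.113 without the replicate block), with a geometric mean of 1962.4 on CD90+/CD133- and 3352 on CD90-/CD133- arrays. KLK11 fell by 0.60 (adjusted p = 0.00107, 0.112 with a floor of 64) and KLK8, the other neighbour of KLK7, by 0.27 (adjusted p = 0.0477, 0.75 without the block). In CD90+/CD133+ against CD90-/CD133- cells KLK4 was 0.27 higher (adjusted p = 0.0474, 0.126 without the block), KLK10 and KLK11 were lower, KLK5 was lower (adjusted p = 0.0081, 0.242 without the block), and KLK8 stood at 0.05 (adjusted p = 0.789).

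**Figure D3:**
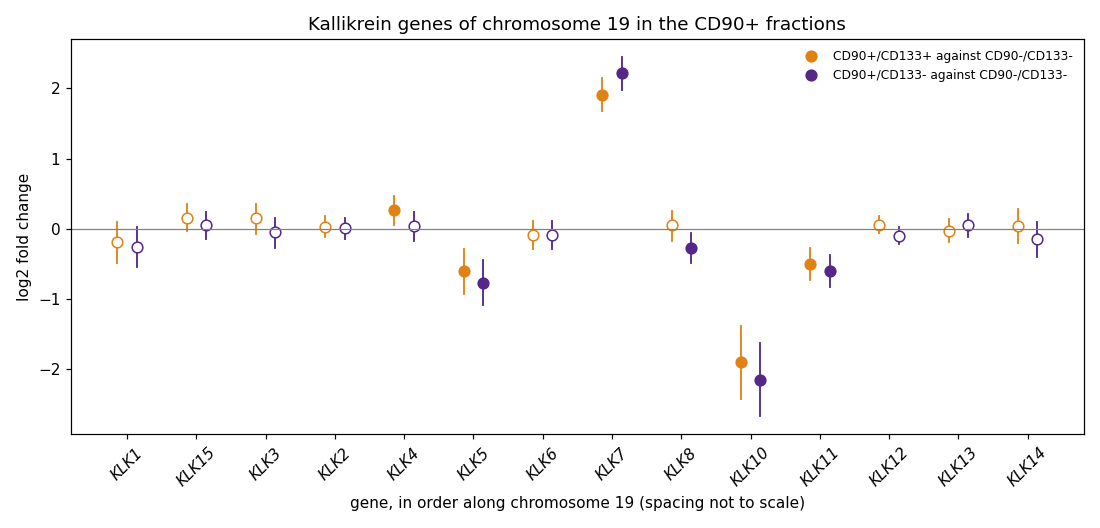
Log2 fold change of the measured kallikrein genes in chromosome order, with 95% intervals, for the CD90+/CD133+ and the CD90+/CD133- fraction, each against CD90-/CD133- cells. Filled circles passed an adjusted p of 0.05. KLK7 stands at 1.91 and 2.22, KLK10 at -1.90 and -2.15, and KLK6 near 0.

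RefSeq promoter windows (GRCh38.p14) of 7 of the 10 genes were used here, and the 250 bases before the annotated start were searched on both strands for the letters of 4 motifs. Only the first window listed for a gene was taken, so any other annotated start of that gene was not examined. The NF-kB motif was taken as GGGNNNNNCC, found in 54.4% of 35116 such windows. The TATA box was taken as TATAAA and was found in 10.7% of them. The AP-1 motif was taken as TGANTCA and was found in 6.57%. The GC box was taken as GGGCGG and was found in 42.6%. The windows of KLK6, KLK7 and KLK10 are printed because these genes of one cluster had no called difference, a rise and a fall. That of LCN2, a textbook NF-kB target, is printed beside them. Sequences run 5' to 3' on the gene's strand and capitals mark motif matches, some of which overlap. They lie at chr19:50969592-50969841 (KLK6), chr19:50983918-50984167 (KLK7) and chr19:51019862-51020111 (KLK10), all on the minus strand, and at chr9:128149203-128149452 on the plus strand (LCN2).
KLK6: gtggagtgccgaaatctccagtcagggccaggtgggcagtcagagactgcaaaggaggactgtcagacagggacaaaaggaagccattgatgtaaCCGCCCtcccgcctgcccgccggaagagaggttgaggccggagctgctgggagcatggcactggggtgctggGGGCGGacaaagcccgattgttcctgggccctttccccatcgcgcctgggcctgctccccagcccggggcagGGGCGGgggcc
KLK7: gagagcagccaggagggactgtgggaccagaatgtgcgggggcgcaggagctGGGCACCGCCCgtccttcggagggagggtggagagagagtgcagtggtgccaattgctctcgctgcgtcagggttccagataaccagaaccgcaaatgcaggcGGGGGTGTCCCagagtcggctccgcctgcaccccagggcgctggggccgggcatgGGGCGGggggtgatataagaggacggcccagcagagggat
KLK10: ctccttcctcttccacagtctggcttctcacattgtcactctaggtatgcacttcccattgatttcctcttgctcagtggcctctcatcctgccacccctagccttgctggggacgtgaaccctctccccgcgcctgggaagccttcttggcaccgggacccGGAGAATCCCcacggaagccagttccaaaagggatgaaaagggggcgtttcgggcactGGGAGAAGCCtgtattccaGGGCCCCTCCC
LCN2: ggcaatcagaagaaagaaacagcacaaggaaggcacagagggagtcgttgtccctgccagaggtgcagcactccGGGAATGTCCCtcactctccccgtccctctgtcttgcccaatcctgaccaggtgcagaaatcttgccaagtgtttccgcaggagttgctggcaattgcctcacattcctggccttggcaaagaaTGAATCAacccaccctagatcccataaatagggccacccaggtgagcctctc
KLK6 held 3 GC boxes and no NF-kB match. KLK7 held 4 NF-kB matches in overlapping pairs, 95 and 198 bases before the start, and 2 GC boxes. KLK10 held 4 NF-kB matches within 88 bases of the start and no GC box. LCN2 held an overlapping pair of NF-kB matches and an AP-1 match 52 bases before the start. A match describes letters only.

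WFDC2 had an intensity of 175.1, 235, 547.2, 238.6 and 1016.7 on CD90+/CD133+ arrays, 153.4, 187.8, 451.8, 240.5 and 569.8 on CD90+/CD133- arrays, and 370.2, 401.8, 668, 430.7 and 1047.5 on CD90-/CD133- arrays. The groups overlapped, since replicates 3 and 5 were high in each, but the CD90-/CD133- array was the highest of its number in 5 of 5. WFDC2 was 1.91-fold lower in the CD90+/CD133- than in the CD90-/CD133- fraction (-0.93 on the log2 scale, standard error 0.139, adjusted p = 0.000385). It was 1.52-fold lower in the CD90+/CD133+ than in the CD90-/CD133- fraction (-0.61 on the log2 scale, adjusted p = 0.00589). Without the replicate block neither passed (adjusted p = 0.223 and 0.476). CD90+/CD133+ against CD90+/CD133- cells gave 0.32 (adjusted p = 0.173). A second WFDC2 probe set was dim (14 to 25.3 on all arrays) and gave 0.10 (the mean of the WFDC2 probe sets gave -0.28), and another lay under 16 on all arrays and was not tested.

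SLPI inhibits neutrophil elastase and, like WFDC2, lies on chromosome 20. Its intensity was 676.6, 419.3, 836, 413.9 and 1246.3 on CD90+/CD133+ arrays, 531.1, 366.1, 863.7, 298 and 1510 on CD90+/CD133- arrays, and 759.5, 603.6, 851.4, 553.1 and 1221.1 on CD90-/CD133- arrays. Replicates 1, 2 and 4 were lower in CD90+/CD133- cells and replicates 3 and 5 were not. The log2 fold change was -0.36 (95% interval -0.69 to -0.03, adjusted p = 0.0852) for CD90+/CD133- and -0.22 (adjusted p = 0.304) for CD90+/CD133+ against CD90-/CD133- cells. The first passed without CD90+/CD133- replicate 5 (-0.50, adjusted p = 0.0158) or without CD90-/CD133- replicate 5 (-0.48, adjusted p = 0.0319), and among probe sets with a mean log2 of at least 6 (adjusted p = 0.038). Among 9 other tested WAP-domain genes none was higher in the CD90+/CD133- than in the CD90-/CD133- fraction and only WFDC3 was lower (adjusted p = 3.97e-06). Over all genes 18.7% were higher and 22.3% lower. WFDC3 lay at 30.1 to 41.4 on CD90+/CD133- and 58.3 to 75.3 on CD90-/CD133- arrays, with geometric means of 34.3 and 68.7. PI3, which encodes the elastase inhibitor elafin, gave 0.33 (adjusted p = 0.165).

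LCN2 had an intensity of 931.9, 1222.8, 2266, 1516.8 and 4578.2 on CD90+/CD133+ arrays, 960.2, 1066.6, 3068.3, 1201.8 and 9229.3 on CD90+/CD133- arrays, and 651.4, 1015.4, 1049.3, 964.3 and 3751.2 on CD90-/CD133- arrays. Replicate 5 was by far the highest in each fraction, and the groups overlapped. Both CD90+ arrays exceeded the CD90-/CD133- array of their number in 5 of 5. LCN2 was 1.69-fold higher in the CD90+/CD133- than in the CD90-/CD133- fraction (0.76 on the log2 scale, standard error 0.207, adjusted p = 0.0148), with pair differences from 0.07 to 1.55. The call was lost without the block (adjusted p = 0.478), with the 10 compared arrays alone (0.0646) and without CD90+/CD133- replicate 3 (0.63, adjusted p = 0.0509). For CD90+/CD133+ against CD90-/CD133- cells the value was 0.57 (adjusted p = 0.0576). That value passed in 6 of 12 limma alternatives (adjusted p from 0.0195 to 0.0496), among them the 10 compared arrays alone with the block (0.0279), and without CD90+/CD133+ replicate 5 (0.70, adjusted p = 0.031), CD90+/CD133- replicate 2 or 5 (adjusted p = 0.0497 and 0.036) or CD90-/CD133- replicate 2 (adjusted p = 0.0382). LCN2 and SLPI are also made by neutrophils, and 5 of 6 measured leukocyte genes were under 64 on all arrays. The exception, CD14, reached 171.1. It was 0.96 log2 units higher in the CD90+/CD133- than in the CD90-/CD133- fraction (adjusted p = 0.00106). The sum of the 6 ran at 159.9 to 242.9 on CD90+/CD133+, 175.3 to 231 on CD90+/CD133- and 121.1 to 147.3 on CD90-/CD133- arrays, with PTPRC at 5 on every array. The part of leukocytes in the LCN2 and SLPI values was not tested.

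MMP9, a gelatinase that LCN2 protein binds and stabilises, was 1.29 log2 units lower in the CD90+/CD133- than in the CD90-/CD133- fraction (adjusted p = 4.4e-05), at 28 to 39.9 against 68.9 to 108.8. Of 14 other tested lipocalins 1 was higher and 1 was lower, beside 18.7% and 22.3% of all genes. APOM, an apolipoprotein, was the higher one (0.56). LCN10 was the lower one (-0.30, and -0.04 with a floor of 64, where it did not pass). Of 13 NF-kB subunits and inhibitors 5 were higher and 2 lower (3 and 0 without the block), with a median of 0.28, where 18.7% and 22.3% of all genes were and the median was -0.02. CHUK, a kinase of the IkB kinase complex, rose by 0.97 (adjusted p = 7.89e-05). TNFAIP3, which curbs NF-kB signalling, rose by 0.46 (adjusted p = 0.00645, 0.521 without the block), and the inhibitor NFKBIA fell by 0.38 (adjusted p = 0.00323, 0.234 without the block). The second probe sets of both did not pass, at 0.20 for TNFAIP3 (adjusted p = 0.262) and -0.04 for NFKBIA (adjusted p = 0.513). For CD90+/CD133+ against CD90-/CD133- cells, 3 of the 13 NF-kB genes were higher and 3 lower, with a median of 0.01. Of 16393 genes 2959 were higher and 3511 lower in that comparison, with a median of 0.

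MUC16 had an intensity of 228.6, 675.3, 859.1, 857.7 and 1234.2 on CD90+/CD133+ arrays, 283.4, 710.7, 969.7, 1082.4 and 1160 on CD90+/CD133- arrays, and 326.5, 759.5, 861.7, 1108.5 and 996.6 on CD90-/CD133- arrays. The fractions overlapped almost wholly, and replicate 1 was low in all. The log2 fold change was 0.01 (95% interval -0.21 to 0.23, adjusted p = 0.957) for CD90+/CD133- and -0.15 (95% interval -0.37 to 0.07, adjusted p = 0.294) for CD90+/CD133+ against CD90-/CD133- cells. The second passed only without the 3 arrays of replicate 5 (-0.26, adjusted p = 0.0449) among 20 fits that left out an array or a replicate number.

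MUC1 had an intensity of 53.7, 55.6, 80.3, 78.3 and 131.9 on CD90+/CD133+ arrays, 49.4, 63.3, 94, 82.9 and 135 on CD90+/CD133- arrays, and 48.5, 50.8, 62.8, 49.4 and 86.2 on CD90-/CD133- arrays. Both CD90+ fractions exceeded CD90-/CD133- cells in 5 of 5 pairs, although replicate 1 barely differed and the groups overlapped. MUC1 was 1.38-fold higher in the CD90+/CD133- than in the CD90-/CD133- fraction (0.46 on the log2 scale, standard error 0.0989, adjusted p = 0.00373, 0.299 without the block). For CD90+/CD133+ cells it was 1.30-fold higher (0.38 on the log2 scale, adjusted p = 0.0118, 0.424 without the block). Its 2 dimmer probe sets gave 0.64 (adjusted p = 0.0131) and 0.41 (adjusted p = 0.00845) in the first comparison, where the call of 0.64 was lost without the block (adjusted p = 0.216), with the 10 compared arrays alone (0.0723) and without replicate 3 or 5 (0.0776 and 0.0676). In the second they gave 0.42 (adjusted p = 0.0867) and 0.30 (adjusted p = 0.0392), and the last of these was lost without any of 8 of the 15 arrays.

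Of 13 other tested mucins 2 were higher in the CD90+/CD133- than in the CD90-/CD133- fraction and 1 was lower. Over all genes 18.7% were higher and 22.3% lower. MUC4, a membrane mucin that binds ERBB2, rose by 1.61 (3.05-fold, adjusted p = 8.95e-07), at 736.3 to 2262.1 on CD90+/CD133- and 206.8 to 984.8 on CD90-/CD133- arrays. Its other 5 probe sets gave 0.11 to 1.56, and 3 of them passed. MUC20 rose by 0.76 (adjusted p = 0.0117, 0.416 without the block), and OVGP1, an oviduct glycoprotein, fell by 0.38 (adjusted p = 0.0121). Of the other MUC20 probe sets those at 0.85 and 0.86 passed and that at 0.09 did not (adjusted p = 0.514). OVGP1 lost its call with a floor of 64 (-0.03, adjusted p = 0.504) and without replicate 2 or 4 (adjusted p = 0.0683 and 0.0584), and MUC20 without replicate 4 or 5 (adjusted p = 0.0543 and 0.0546).

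MSLN had an intensity of 206.4, 207.3, 267.8, 255.4 and 420.4 on CD90+/CD133+ arrays, 275.7, 212.1, 304.2, 218.3 and 369.2 on CD90+/CD133- arrays, and 159.4, 188.1, 228.7, 229 and 312.3 on CD90-/CD133- arrays. CD90+/CD133- arrays were higher in 4 of 5 pairs, and the groups overlapped. MSLN was 1.24-fold higher in the CD90+/CD133- than in the CD90-/CD133- fraction (0.31 on the log2 scale, standard error 0.105, adjusted p = 0.0402, 0.385 without the block). The call was lost without any of 11 arrays (adjusted p from 0.0505 to 0.118), namely every array except CD90+/CD133+ replicate 5, CD90+/CD133- replicates 4 and 5 and CD90-/CD133- replicate 4. It was also lost with the 10 compared arrays alone (adjusted p = 0.124), and fits without an array or number gave 0.19 to 0.40. CD90+/CD133+ against CD90-/CD133- cells gave 0.27, higher in 5 of 5 pairs (adjusted p = 0.0767), and passed without CD90+/CD133- replicate 1 (adjusted p = 0.0217), with the 10 compared arrays alone (0.0193) and among probe sets with a mean log2 of at least 6 (0.0425). Mesothelial cells also make MSLN, and 5 of 8 mesothelial genes were under 64 on all arrays. KRT5 (744 to 3071.4) made up most of the sum of the 8, which was 1316 to 3302, 1730 to 3091 and 977 to 2236 over the CD90+/CD133+, the CD90+/CD133- and the CD90-/CD133- arrays. The mesothelial genes that reached 64 did not move together between the CD90+/CD133- and the CD90-/CD133- fraction. By limma KRT5 was higher by 0.76 (adjusted p = 0.0043) and UPK3B (27.8 to 127.2) by 1.22 (adjusted p = 0.000159). CALB2 (29.6 to 78.5) was lower, at -0.84 (adjusted p = 6.87e-05). The part of mesothelial cells in the MSLN difference was not tested.

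FOLR1 had an intensity of 610.6, 611, 472.3, 510.2 and 425.4 on CD90+/CD133+ arrays, 672.1, 677.3, 573.1, 421.5 and 378.4 on CD90+/CD133- arrays, and 477.7, 642.3, 507.4, 344.8 and 341.3 on CD90-/CD133- arrays. CD90+/CD133- arrays were higher in 5 of 5 pairs by 0.08 to 0.49 log2 units, and the groups overlapped. The log2 fold change of 0.24 (95% interval 0.02 to 0.45, adjusted p = 0.0883) did not pass, and neither did 0.21 for CD90+/CD133+ against CD90-/CD133- cells (adjusted p = 0.13). A second FOLR1 probe set lay at 16.7 to 26.8 on all arrays and gave -0.21 (adjusted p = 0.0785), opposite in sign. Of 8 other folate genes none was higher and 3 were lower in the CD90+/CD133- than in the CD90-/CD133- fraction. Over all genes 18.7% were higher and 22.3% lower. ABCC1, an efflux pump that also exports folates, fell by 0.48 (adjusted p = 0.000244), and SLC19A1, the reduced folate carrier, by 0.38 (adjusted p = 0.0102, 0.147 without the block) on its brightest probe set. Of the 7 SLC19A1 probe sets 5 did not pass, at -0.13 to 0.09, and their mean missed the threshold (-0.12, adjusted p = 0.0651). GGH, which shortens folate polyglutamates, fell by 0.65 (adjusted p = 0.0257). GGH lost its call without any of CD90+/CD133- replicates 1 and 2 and CD90-/CD133- replicates 1, 2, 4 and 5 (adjusted p from 0.0521 to 0.0707).

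PRAME was dim throughout, at 43.3, 41.4, 38.4, 38.5 and 43.8 on CD90+/CD133+ arrays, 43.3, 49.7, 46.9, 43.1 and 43.7 on CD90+/CD133- arrays, and 58.7, 56.3, 51.7, 57.2 and 95.9 on CD90-/CD133- arrays. Neither CD90+ fraction overlapped CD90-/CD133- cells, and the share of all probe sets that separate in this way was not computed. PRAME was 1.38-fold lower in CD90+/CD133- (-0.46 on the log2 scale, standard error 0.122, adjusted p = 0.0128, 0.0206 without the block) and 1.52-fold lower in CD90+/CD133+ cells (-0.60 on the log2 scale, adjusted p = 0.00292), each against CD90-/CD133- cells. Without the 3 arrays of replicate 5 the CD90+/CD133- value was -0.29, and with the 10 compared arrays alone its call was lost (adjusted p = 0.0747). With intensities floored at 64 both were -0.12 and neither passed (adjusted p = 0.318 and 0.329). Of 11 other cancer-testis antigens tested none was higher and 2 were lower in the CD90+/CD133- than in the CD90-/CD133- fraction. Over all genes 18.7% were higher and 22.3% lower. XAGE2 lay at 112.1 to 187.8 on CD90+/CD133+, 67 to 99.9 on CD90+/CD133- and 305 to 367.1 on CD90-/CD133- arrays, without overlap between any of them (log2 fold change -2.02 for CD90+/CD133- against CD90-/CD133- cells, adjusted p = 3.59e-07). SPAG9, which is expressed well beyond testis, fell by 0.32 on its brightest probe set (adjusted p = 0.0129, 0.219 without the block), but 3 of its 5 probe sets did not pass (0.04, -0.05 and -0.08) and their mean was -0.15.

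Among 30 other surface and secreted markers of ovarian carcinoma, 8 were higher in the CD90+/CD133- than in the CD90-/CD133- fraction and 6 were lower, where 18.7% and 22.3% of all genes were. L1CAM, a neural adhesion molecule, lay at 613.9 to 2084.1 on CD90+/CD133- and 66.9 to 368.4 on CD90-/CD133- arrays (2.67 on the log2 scale, adjusted p = 2.12e-07), although a second probe set gave 0.22 and did not pass. CRABP2, which carries retinoic acid, fell by 2.27 (adjusted p = 1.71e-06). SPP1, which encodes osteopontin, fell by 2.02 (adjusted p = 0.0117), with 4 of 5 CD90+/CD133- arrays and 1 of 5 CD90-/CD133- arrays under 16. The SPP1 call was lost with the 10 compared arrays alone (adjusted p = 0.0595), with a floor of 64 (-0.69, adjusted p = 0.0667) and without replicate 1, 2 or 4 (adjusted p from 0.0563 to 0.0696). Of 20 binding partners, targets and inhibitors of the antigens 4 were higher and 7 were lower, beside the same 18.7% and 22.3%. Besides MMP9 the lower genes included EGFR, which MUC1 binds and which fell by 1.14 on its brightest probe set (adjusted p = 1.22e-06). Its other probe sets gave -1.83 to 0.11, and those at -0.22 (adjusted p = 0.0516) and 0.11 (adjusted p = 0.485) did not pass. PLSCR4, a phospholipid scramblase, fell by 0.94 (adjusted p = 0.000986, 0.181 without the block, 0.102 with a floor of 64).

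The replicate number, rather than the fraction, held most of the spread of 8 of the 10 genes. Of the log2 sum of squares over 15 arrays, replicate number held 96.3% for MUC16, 95.8% for KLK6, 86.7% for SLPI and 83.6% for LCN2, and fraction 0.976%, 0.52%, 5.01% and 9.64%. WFDC2, MUC1, FOLR1 and MSLN had 72.8% to 75.6% by replicate number and 10.7% to 20.5% by fraction. Only KLK7 (60.6%) and PRAME (63.6%) varied more by fraction. Over the 18737 probe sets with a mean log2 intensity of at least 6, which leave out PRAME, the medians were 36.3% by number and 38.9% by fraction. How many of them varied more by number than by fraction was not counted. A replicate share as large as that of MUC16 was reached by 0.107% of them, of KLK6 by 0.144%, of SLPI by 2.94% and of LCN2 by 4.57%. For WFDC2, MUC1, FOLR1 and MSLN it was 9.68% to 11.7%. The 3 arrays of replicate 1 lay below the other 12 for MUC16, LCN2 and KLK6, as they did for 5.27% of those probe sets. The 3 arrays of replicate 5 lay above the others for MSLN, SLPI and LCN2 (3.78%). These shares were computed after the values had been seen and describe the arrays, with no test.

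**Figure D4:**
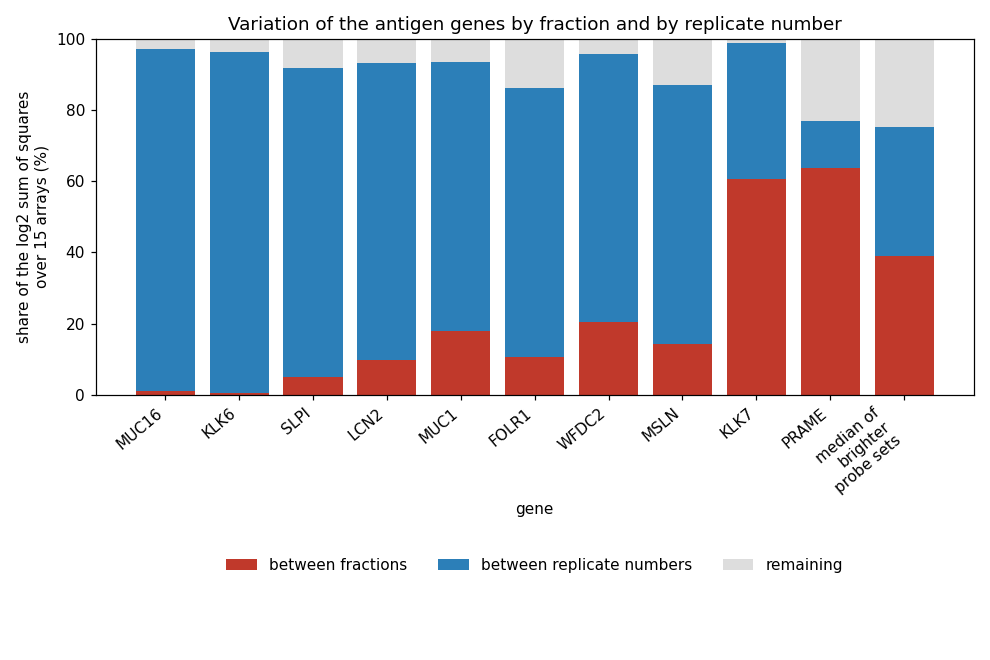
Share of each gene's log2 sum of squares over 15 arrays held by fraction, by replicate number and by the rest, for the brightest probe set, beside the median of 18737 brighter probe sets. The replicate number takes 96.3% for MUC16 and 95.8% for KLK6, and fraction takes the larger share only for KLK7 and PRAME among the genes.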

How the data were processed

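Total RNA of sorted PEO1 fractions was hybridised to Affymetrix U133 Plus 2.0 arrays, and the authors applied a cross-correlation normalization. Each deposited value is a probe set's intensity on a linear scale, never below 5, and the probe summary software is not given in the sources used here. Array medians lay at 29.4 to 32.4, and 32.7% to 34.6% of probe sets were under 16. The labels give 5 replicates per fraction, which the methods call biological for the CD90+/CD133- and CD90-/CD133- fractions, while the submitters' design text speaks of triplicates. For the CD90+/CD133+ fraction no source used here says whether the replicates are separate cultures, so its p-values may measure technical spread. Precision is limited by the number of arrays.

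Of 54675 probe sets, 62 controls were set aside, and of the rest 41091 name 1 gene, 1801 several and 11721 none. Intensities were floored at 16, log2 was taken, and the 40004 probe sets above 16 on at least 1 array were fitted with limma 3.58.1 (R 4.3.3, lmFit and eBayes) over all 15 arrays, with fraction and replicate number as terms. The floor understates the change of dim genes. Tests were 2-sided, with Benjamini-Hochberg adjustment over all 40004 and a threshold of 0.05. The fitting was tested on simulated data. A gene was read from its probe set with the highest mean log2.

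The replicate number is a block because deviations from the group mean over brighter probe sets correlated within numbers, at 0.19 to 0.78, 0.19 to 0.77 and 0.33 to 0.84 for the 3 pairs of fractions, and because labels share a code within a number (replicates 4 and 5 share one). Replicate 3 correlated least. For CD90+/CD133- and CD90-/CD133- arrays it gave 0.19, against 0.16 for the best other number. For CD90+/CD133+ and CD90-/CD133- arrays it gave 0.19, against 0.23 for the best other number. No 2 arrays held identical values. The genes and gene lists were chosen with earlier results of these data known. Named were the 10 antigen genes, the genes of the sort markers, from each other list at most 3 called genes (those with the largest change), and the kallikrein and WAP-domain genes next to them in the order of their family on the chromosome. KLK4, the remaining marker genes and CD90+/CD133+ results of KLK8 were named after their values were seen. Alternatives were other blocks, array subsets, normalizations, floors, filters, probe set summaries and tests, and each array or replicate number left out. Chromosome order came from the RefSeq table of GRCh38.p14.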

Additional observations from a re-analysis of the deposited data

Results flagged for a closer look

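An array was flagged where it lay far from its nearest neighbour for the log2 range of its set. Chance flags about 1 in 20 independent sets, but the sets of a gene share replicate numbers and are not independent. Of 30 sets of 5 arrays (10 genes in 3 fractions), 5 held such an array, and no conclusion is drawn from that count. KLK6 in replicate 1 was such an array in every fraction, at 1620 in CD90+/CD133+ (nearest 4499), 1790.3 in CD90+/CD133- (nearest 4368.7) and 2270.4 in CD90-/CD133- cells (nearest 4436.2). LCN2 in CD90-/CD133- replicate 5 stood at 3751.2 with 1049.3 as the nearest. PRAME in CD90-/CD133- replicate 5 stood at 95.9 with 58.7 as the nearest.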

How the results depend on the processing

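KLK7 kept its direction and call against CD90-/CD133- cells under all 12 limma alternatives and with any array or number left out (2.13 to 2.32 for CD90+/CD133- and 1.84 to 2.01 for CD90+/CD133+ cells). Without the replicate block PRAME kept both its calls (adjusted p = 0.0206 and 0.00448), while WFDC2, MUC1, LCN2 and MSLN lost theirs on the brightest probe set. Without the block limma called 9276, 8306 and 503 probe sets for CD90+/CD133- against CD90-/CD133-, CD90+/CD133+ against CD90-/CD133- and CD90+/CD133+ against CD90+/CD133- cells (14242, 13471 and 3546 with the block), and 4 and 3 of the 15 antigen probe sets in the first and second (9 and 6 with it). With the label code as block limma called 12052, 11273 and 1633 probe sets, with 4 and 3 antigen probe sets in the first and second. On the brightest probe set WFDC2 (adjusted p = 0.0917 and 0.289) and MUC1 (0.107 and 0.194) then lost both calls. LCN2 (0.347) and MSLN (0.239) lost theirs in the first. With only the 10 arrays compared and the block, limma called 11946, 12748 and 849 probe sets. Of the 15, the first comparison called 5 and the second 8 (MSLN at adjusted p = 0.0193 and LCN2 at 0.0279 were added). With those 10 arrays and no block, the counts were 8103, 8306 and 118, with 3 and 3 antigen probe sets. A floor of 64 left 10232 probe sets in the second comparison, 3 of them among the 15, and MUC1 then missed the threshold (0.25, adjusted p = 0.066). Fewer features were tested with 1 probe set per gene (6897, 6677 and 1543 called) and with the mean of probe sets (6887, 6685 and 1711). At an unadjusted p under 0.05 the t-test called 11724, 12025 and 5070 probe sets, with 4, 4 and 1 antigen probe sets. After adjustment it gave 6827, 7197 and 29 probe sets, with 1 and 3 antigen probe sets in the first and second. A fold of 1.5 between group averages, the threshold in the paper's array methods, gave 5434, 5126 and 597, with 5 and 3.

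Leaving out an array or a number gave 11240 to 14237, 10749 to 14132 and 418 to 3500 calls, with 6 to 10, 5 to 7 and 0 to 0 antigen probe sets. Values near 0 changed sign. MUC16 in the first comparison ranged from -0.07 to 0.08 and KLK6 in the second from -0.14 to 0.01. In the third, MSLN ranged from -0.13 to 0.06, FOLR1 from -0.11 to 0.05, LCN2 from -0.33 to 0.01 and KLK6 from -0.06 to 0.06. There FOLR1 was 0.01 after median centring and 0.02 as the mean of probe sets, KLK6 was 0.03 after median centring, and PRAME was 0.00 with a floor of 64. The call of MUC1 in the second comparison was lost without replicate 4 (adjusted p = 0.0647) or 5 (0.0723), that of PRAME in the first without replicate 1 (0.0528) or 4 (0.0522), and that of LCN2 in the first without replicate 1 (0.0542), 3 (0.0819) or 5 (0.059). The cause of these changes was not tested.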
